A study of Arabidopsis thaliana with 8 samples.

Results

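The 9 transcription factor genes described here help to build the root, and were measured in seedlings taken whole: LBD16, LBD18 and LBD29 of lateral root formation, PLT1, PLT2 and PLT3 of the root stem cell niche, WOX5 of the quiescent centre, and SHR and SCR of the ground tissue. They were chosen by locus, 1 gene model each, and made up 9 of the 27416 gene models measured; 7 of the 9 were abundant enough to be tested. The measurements were polyadenylated RNA levels in 8 libraries of Arabidopsis thaliana Col-0 seedlings at 4.5 days, 2 libraries for each of 4 groups. The wild type was grown in darkness or under blue light of 15 μmol/m2/s. The cry1 cry2 double mutant was grown under the same blue light. Darkness was also the condition of the quadruple mutant tir1 afb1 afb2 afb3, called the auxin receptor mutant below. Every group shared a cold period of 3 days, 12 h of white light and then 4 days of its light condition on medium with 1% sucrose. The labels name the tissue as seedling, with root and shoot together, and name no mutant allele.

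Auxin brings its receptors TIR1 and AFB1 to AFB3 together with Aux/IAA repressors, which are then degraded. This frees auxin response factors such as ARF7 and ARF19, which switch on LBD16, LBD18 and LBD29 in the cells that found a lateral root. PLT proteins, of the AP2 domain class, act as dose-dependent regulators of stem cells and division in the root meristem, and PLT3 also acts in lateral root primordia. WOX5 is a homeobox factor made in the quiescent centre, where it keeps the neighbouring stem cells undifferentiated. SHR is transcribed in the stele and moves one layer outwards, where it works with SCR to specify the endodermis and to maintain the stem cell niche. CRY1 and CRY2 are cryptochromes, the receptors through which seedlings respond to blue light.

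The study asked which genes depend on cryptochrome signalling in blue light and on TIR1/AFB auxin signalling. Levels are given in RPKM, reads scaled to the length of the gene model and the total of the library, so that genes can be compared with each other. The 8 libraries held 19.3 M to 23.1 M reads, recovered from the steps of the RPKM values. Log2 fold changes compare RPKM + 1, which understates the change of genes near or below 1 RPKM, and SE is the standard error. The words rose and fell are kept for genes with an adjusted p under 0.05 in limma, fitted over 20044 models that reached 1 RPKM in at least 2 libraries. No label states that the libraries are from separate cultures, and a p here reflects the spread between these samples alone, possibly a technical one. The mutants matched their labels in part: CRY2 reads in cry1 cry2 were 0.0782% of the wild-type share, and AFB2 and AFB1 reads in the quadruple mutant were 1.56% and 3.17%. CRY1 stood at 72.1%, TIR1 at 77.1% and AFB3 at 50.2%, and for these the transcript level did not identify the mutant.

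Of the 7 root regulators tested, the 3 LBD genes and SHR fell in blue light, rose in cry1 cry2 against the blue-grown wild type, and fell in the auxin receptor mutant. PLT3 fell in the auxin receptor mutant and passed in neither light comparison. WOX5 fell in blue light, and SCR passed in none of the comparisons. WOX5 reached 1 RPKM in 2 libraries, both dark, so it was tested only through the light condition where it was high. In blue light 5 of 7 fell and none rose, where 74.4% of all tested models passed, 34% rose and 40.4% fell. In cry1 cry2 against the blue-grown wild type 4 of 7 rose and none fell, where 67.9% of all models passed, 41.6% rose and 26.3% fell. The auxin receptor mutant had 5 of 7 fallen and none risen, where 78.9% of all models passed, 27.5% rose and 51.4% fell. In cry1 cry2 under blue light against the dark wild type 1 rose and 3 fell (2 of 7 passed without cry1cry2_blue replicate 2), where 41.6% of models passed, 25.1% rose and 16.5% fell. To order the levels of each gene, the auxin receptor mutant was also set against both blue-grown groups, where 5 of 7 fell and none rose: 75.6% of models passed against the wild type (23.1% risen, 52.5% fallen) and 80.2% against cry1 cry2 (23.8% risen, 56.4% fallen). The comparisons share libraries, the dark wild type or the blue-grown wild type, so their changes are not independent of each other. There was no cry1 cry2 in darkness and no auxin receptor mutant in blue light. Genotype and light therefore cannot be told apart where cry1 cry2 is set against the dark wild type. The same holds where the auxin receptor mutant is set against a blue-grown group. Whether a change in either mutant depends on the light condition was not tested. Most genes passed in the first 3 comparisons, so the counts alone do not set these regulators apart, and the sizes are given below gene by gene. In seedlings taken whole, fewer cells of a type and less RNA per cell cannot be told apart.

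**Figure D1:**
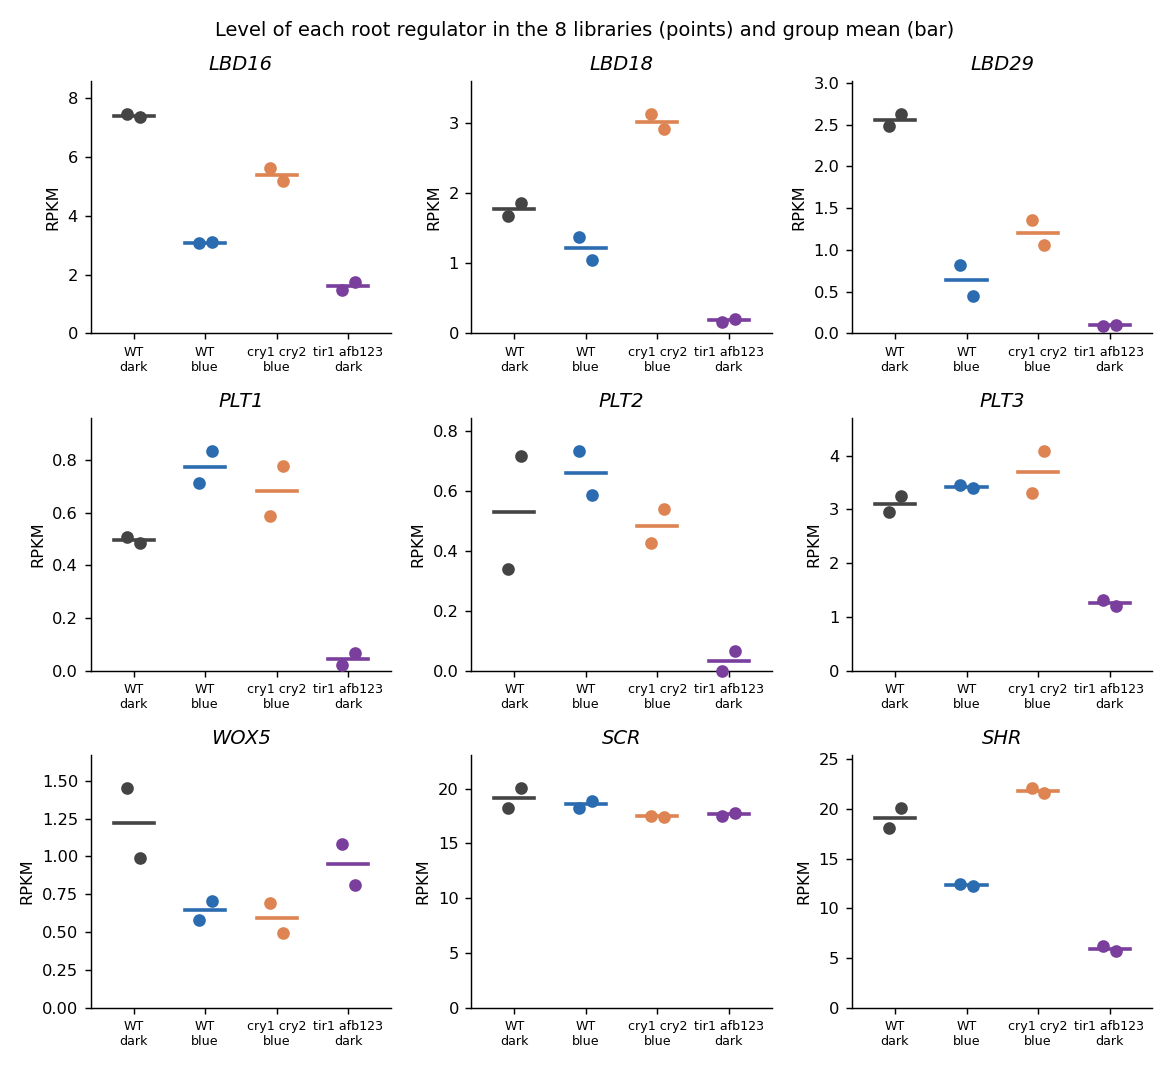
Level of each root regulator in RPKM (vertical axis, starting at 0, its range set per gene) in the 2 libraries of each of the 4 groups (points), with the group mean as a bar. SCR sits between 17.4 and 20.04 RPKM in all 8 libraries, while LBD16, LBD18, LBD29, PLT1, PLT2, PLT3 and SHR are lowest in both libraries of the auxin receptor mutant.

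LBD16 (AT2G42430, chromosome 2, 17663353 to 17665337 in TAIR10.1, plus strand), LBD18 (AT2G45420, chromosome 2, 18718348 to 18720729, plus strand) and LBD29 (AT3G58190, chromosome 3, 21548484 to 21549572, minus strand) are LOB-domain factors. The promoters were searched for the auxin response element TGTCTC, read as GAGACA on the other strand, which auxin response factors bind. In the 1000 bases before the gene start it occurred in 4 of the 9 regulators, namely these 3 LBD genes and WOX5, and in 39.6% of 27443 promoters of the genome, so the share is close to the background. The matches of the LBD genes are shown because these 3 genes changed in the same direction in blue light, in cry1 cry2 against the blue-grown wild type and in the auxin receptor mutant, though not in cry1 cry2 against the dark wild type, where LBD18 rose and the other two fell. Each is a 60-base window of the RefSeq TAIR10.1 genome read in the direction of the gene, 5′ to 3′, with the element in capitals. It lies 674 bases before the start of LBD16 (chr2:17662652-17662711, plus strand), 963 before that of LBD18 (chr2:18717358-18717417, plus strand) and 601 before that of LBD29 (chr3:21550141-21550200, minus strand).
LBD16: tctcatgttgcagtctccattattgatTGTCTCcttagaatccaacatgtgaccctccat
LBD18: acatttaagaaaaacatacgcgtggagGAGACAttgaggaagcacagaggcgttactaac
LBD29: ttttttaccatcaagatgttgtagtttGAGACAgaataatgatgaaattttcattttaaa
The light-response G-box CACGTG, which reads the same on both strands and is bound by factors such as HY5 and the PIFs, occurred in 14.8% of all promoters. Among the 9 regulators it was found in LBD18 alone, 904 bases before the start (chr2:18717417-18717476, plus strand).
LBD18 G-box: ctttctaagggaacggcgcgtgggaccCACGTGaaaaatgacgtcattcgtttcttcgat
A match of 6 letters is a description of the sequence and not a bound site, and no match says only that the letters are not in this window.

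LBD16, which acts in the first asymmetric division of lateral root founder cells, was the most abundant of the 3 LBD genes in the wild type. It stood at 7.46 and 7.34 RPKM in the dark wild type, 3.08 and 3.10 in the blue-grown wild type, 5.61 and 5.18 in cry1 cry2, and 1.47 and 1.74 in the auxin receptor mutant. The libraries of no 2 groups overlapped, and the order ran from the dark wild type through cry1 cry2 and the blue-grown wild type down to the auxin receptor mutant. Each step of that order passed, with adjusted p = 0.007, 0.000109 and 8.69e-05 in turn. Blue light lowered LBD16 by a log2 fold change of -1.04 (SE 0.10, adjusted p = 1.5e-06), or to 41.7% of the dark share of reads with an exact 95% interval of 34.1% to 50.8%. In cry1 cry2 it was at 175% of the blue-grown wild type (143% to 215%), a log2 fold change of 0.65 (SE 0.10). Against the dark wild type it was at 21.7% in the auxin receptor mutant (16.7% to 27.9%), a log2 fold change of -1.69 (SE 0.10, adjusted p = 1.78e-08). These intervals cover counting error only. LBD16 in cry1 cry2 under blue light stood at 73% of the dark wild type (61.8% to 86.1%), and this call was lost without cry1cry2_blue replicate 2 (-0.35, adjusted p = 0.0589).

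LBD18, which acts with LBD16 and LBD29 in primordium growth and emergence, took a different order across the groups. Its levels were 1.68 and 1.86 RPKM in the dark wild type, 1.38 and 1.05 in the blue-grown wild type, 3.14 and 2.92 in cry1 cry2, and 0.170 and 0.212 in the auxin receptor mutant. Here cry1 cry2 was highest, above the dark wild type by 0.54 on the log2 scale (SE 0.12, adjusted p = 0.00355), and all 4 groups again kept apart. Against the blue-grown wild type, LBD18 in cry1 cry2 stood at 248% (187% to 331%, log2 fold change 0.87, adjusted p = 5.04e-05). The fall in blue light was the smallest of the 3 LBD genes, -0.33 (SE 0.12, adjusted p = 0.0255). It was lost without WT_blue replicate 2 (-0.22, adjusted p = 0.184) or WT_dark replicate 2 (-0.28, adjusted p = 0.119), and under upper-quartile scaling (-0.28, adjusted p = 0.0523). Reads of LBD18 in the auxin receptor mutant numbered 11 against 93 in the dark wild type, 10.8% of the wild-type share (5.19% to 20.1%), with a log2 fold change of -1.22 (adjusted p = 1.72e-06).

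LBD29, a direct target of ARF7 and ARF19 like LBD16, kept 3.75% of its dark wild-type share in the auxin receptor mutant, the lowest value of the 9 genes, with an interval that overlaps those of PLT1, PLT2 and LBD18. It was at 2.48 and 2.63 RPKM in the dark wild type, 0.817 and 0.452 in the blue-grown wild type, 1.35 and 1.06 in cry1 cry2, and 0.0941 and 0.0978 in the auxin receptor mutant. The order was that of LBD16, and each neighbouring step passed with adjusted p = 0.00185, 0.0136 and 0.00268. The mutant libraries held 4 reads together against 97 in the dark wild type, an interval of 1% to 9.91%, and the log2 fold change on RPKM + 1 was -1.70 (SE 0.14, adjusted p = 3.32e-07). In blue light LBD29 was at 25.2% of the dark level (15.8% to 38.9%, log2 fold change -1.13, adjusted p = 1.39e-05). Its rise in cry1 cry2 over the blue-grown wild type, 0.44 (SE 0.14, adjusted p = 0.0136), rested on 52 against 27 reads. That call was lost without WT_blue replicate 2 (0.28, adjusted p = 0.132) or without cry1cry2_blue replicate 1 (0.34, adjusted p = 0.101).

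**Figure D2:**
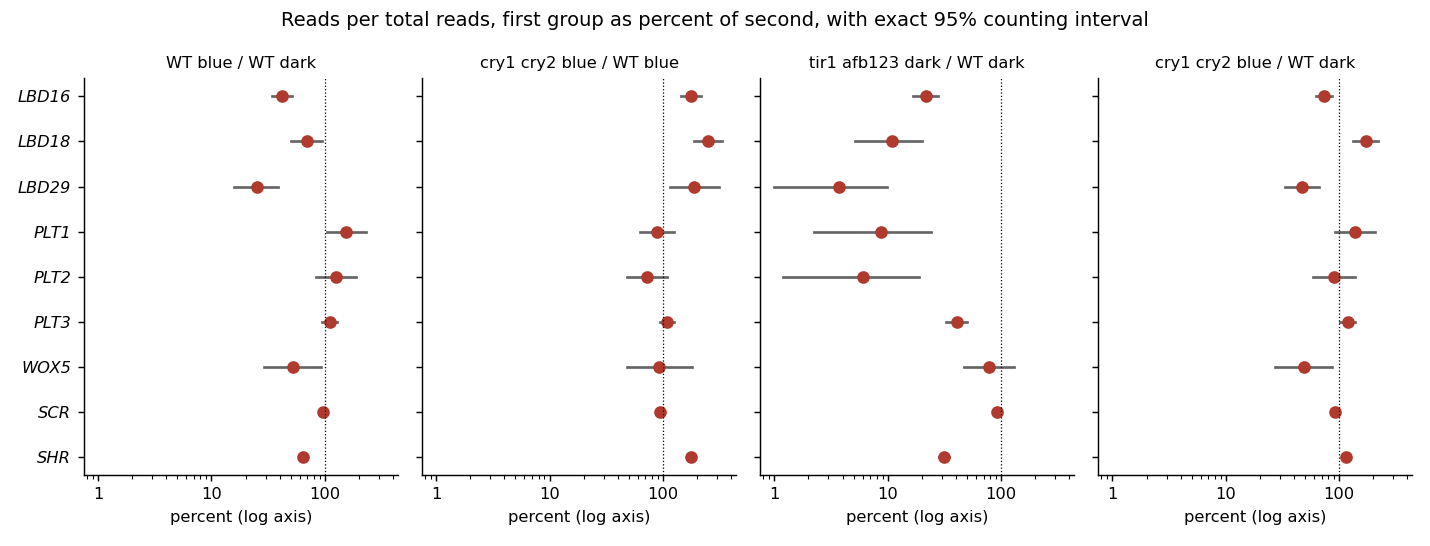
Share of reads of each root regulator in the first named group as a percent of the second (horizontal log axis), with the exact 95% counting interval as a line, for 4 comparisons; the dotted line marks 100%. In the auxin receptor mutant the intervals of the 3 LBD genes, the 3 PLT genes and SHR lie below 100%, LBD29 at 3.75%, that of SCR reaches from 86.5% to 98.3%, though SCR did not pass the test over libraries (adjusted p = 0.155), and the WOX5 interval of 46.8% to 130% includes 100%.

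The other genes of the lateral root pathway were read from a list of 23, of which 18 were tested. Of these, 15 fell and 2 rose in the auxin receptor mutant, at a median log2 fold change of -0.79 against -0.24 over all tested models. Of all tested models 51.4% fell and 27.5% rose there. The largest falls in this list, on the log2(RPKM + 1) scale, were those of MAKR4, a membrane-associated regulator (from 7.38 and 7.56 to 0.278 and 0.330 RPKM, log2 fold change -2.70), the Aux/IAA repressor IAA3 (-2.22) and the expansin EXPA14 (-2.07). The activators upstream of the LBD genes fell by smaller amounts, with log2 fold changes of -0.78 (SE 0.07) for ARF7, -0.81 (SE 0.10) for ARF19 and -1.06 (SE 0.08) for the related MP. The repressor IAA14, whose stabilised form blocks lateral roots, was at 9.16 and 9.97 RPKM in the dark wild type and at 1.49 and 1.74 in the mutant (log2 fold change -2.01). ARF7, ARF19, MP and IAA14 were named after their values were seen, for their place upstream of the LBD genes. The expansin EXPA17 rose by 1.40 (SE 0.11), opposite to the expansin EXPA14, and the receptor kinase ACR4 rose by 0.46. The ACR4 call was lost without WT_dark replicate 1 (0.35) or tir1afb123_dark replicate 1 (0.32).

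Blue light gave 6 falls and 2 rises among these 18 genes, with 10 not passed and a median log2 fold change of -0.16 against -0.06 over all tested models. The share that passed was lower than the 74.4% of all models, where 34% rose and 40.4% fell. IAA3 went from 110.02 and 104 RPKM in darkness to 34.99 and 28.9 (-1.72), and MAKR4 (-1.28) and the auxin influx carrier LAX3 (-0.87) fell as well. The cell cycle factor E2FA rose by 0.81 and the repressor IAA28 by 0.56. In cry1 cry2 against the blue-grown wild type 10 rose and 2 fell, at a median of 0.29 against 0.12 over all tested models. Of all tested models 41.6% rose and 26.3% fell there. IAA3 rose by 1.27, LAX3 by 0.98 and EXPA17 by 0.95, and E2FA (-0.52) and IAA28 (-0.31) fell, the IAA28 call being lost without WT_blue replicate 1 (-0.26) or either cry1 cry2 library (-0.31 each). Reads of the 5 genes below the threshold for testing follow for the dark wild type, blue-grown wild type, cry1 cry2 and auxin receptor mutant in turn. LBD14 had 6, 27, 14 and 0, and LBD17 had 14, 8, 6 and 1. LBD33 had 5, 13, 1 and 1, and GATA23 had 10, 6, 12 and 3. The peptide gene IDA had 38, 12, 24 and 34. In cry1 cry2 under blue light against the dark wild type 3 rose, 2 fell and 13 did not pass. Of all tested models 25.1% rose and 16.5% fell there.

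PLT1 (AT3G20840, chromosome 3, 7300444 to 7303693), PLT2 (AT1G51190, chromosome 1, 18977176 to 18980618) and PLT3 (AT5G10510, chromosome 5, 3315401 to 3320323) lie on the plus strand of TAIR10.1. A second form of the auxin response element, TGTCGG, read as CCGACA on the other strand, occurred in the 1000 bases before the start of 14.6% of all promoters. Among the 9 regulators PLT1 and PLT3 held it, both within 250 bases of the start, a window in which 4.16% of all promoters have it. Within those 250 bases TGTCTC was found in 0 of the 9 regulators and in 10.9% of all promoters, and the G-box CACGTG in 0 of the 9 and in 6.49%. TGTCGG lies 181 bases before PLT1 (chr3:7300236-7300295, plus strand) and 212 before PLT3 (chr5:3315162-3315221, plus strand), and both windows are shown in the gene's direction with the element in capitals.
PLT1: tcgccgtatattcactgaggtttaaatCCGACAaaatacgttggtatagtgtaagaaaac
PLT3: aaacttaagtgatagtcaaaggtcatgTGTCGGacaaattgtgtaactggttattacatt
Neither form nor the G-box was found in the 1000 bases before PLT2, SCR or SHR.

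PLT1 and PLT2, the pair that maintains the root stem cell niche, were nearly at the floor in the auxin receptor mutant. PLT1 stood at 0.509 and 0.486 RPKM in the dark wild type, 0.713 and 0.834 in the blue-grown wild type, 0.588 and 0.776 in cry1 cry2, and 0.0211 and 0.0658 in the auxin receptor mutant. PLT2 stood at 0.340 and 0.717 RPKM in the dark wild type, 0.734 and 0.586 in blue light, 0.426 and 0.539 in cry1 cry2, and 0 and 0.0658 in the auxin receptor mutant. In both genes the 2 mutant libraries lay below the other 6. Among those 6, PLT1 overlapped between the blue-grown groups and was lower in the dark wild type, and the dark wild type of PLT2 overlapped both blue-grown groups. PLT1 had 4 reads in the mutant against 42 in the dark wild type (8.66% of its share, 2.25% to 23.9%), and PLT2 had 3 against 45 (6.06%, 1.2% to 18.9%). Both stayed below 1 RPKM in every library and so outside the main test. When all models above 0 were fitted, PLT1 gave -0.52 (adjusted p = 0.00036) and PLT2 -0.55 (adjusted p = 0.00325) in the auxin receptor mutant on the log2 scale of RPKM + 1. In that fit PLT1 was higher in blue light than in darkness by 0.24 (adjusted p = 0.0209), with 155% of the dark share of reads (104% to 232%). PLT2 did not pass in blue light (0.13, adjusted p = 0.378), and neither gene passed in cry1 cry2 against the blue-grown wild type.

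PLT3, which acts in the root meristem and in lateral root primordia, was more abundant than PLT1 and PLT2. Its levels were 2.96 and 3.24 RPKM in the dark wild type, 3.45 and 3.39 in the blue-grown wild type, 3.31 and 4.08 in cry1 cry2, and 1.32 and 1.20 in the auxin receptor mutant. The auxin receptor mutant lay below all other libraries and the blue-grown groups overlapped, with neighbouring steps at adjusted p = 0.525 and 0.384. PLT3 in the auxin receptor mutant was at 40.5% of the dark wild type (32.8% to 49.8%, log2 fold change -0.86, SE 0.11, adjusted p = 2.06e-05). In blue light it was at 110% of the dark share (94.6% to 129%), and in cry1 cry2 at 108% of the blue-grown wild type (93.3% to 124%). The end of PLT3 overlaps RBK1 (AT5G10520) on the opposite strand by 454 bases, and 13.6% of the 36-base stretches of PLT3 occur in another locus. Whether counting used strand was not given in the sources used here, so reads of the 2 genes may be mixed. RBK1 was at 6.45 and 6.13 RPKM in the dark wild type, 2.53 and 2.13 in blue light, 5.12 and 4.32 in cry1 cry2, and 1.32 and 1.22 in the auxin receptor mutant, and its part in the PLT3 values was not tested. The other members shared at most 3 such stretches, between PLT1 and PLT2.

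Of 5 relatives of the PLT genes 3 were tested, and in the auxin receptor mutant PLT5 and AT1G72570 rose and ANT fell. AT1G72570 reached 1 RPKM only in the auxin receptor mutant, so it was tested only through the group where it was high. The counts of rises and falls in this list therefore depend on the filter. Of all tested models 27.5% rose and 51.4% fell in the auxin receptor mutant, and 34% rose and 40.4% fell in blue light. In cry1 cry2, 41.6% rose and 26.3% fell against the blue-grown wild type, and 25.1% rose and 16.5% fell against the dark wild type. PLT5, which acts with PLT3 and PLT7 in lateral root formation and in the shoot, stood at 1.59 and 1.73 RPKM in the dark wild type and at 8.60 and 8.29 in the mutant (log2 fold change 1.83, SE 0.10, adjusted p = 1.01e-08). AT1G72570, which has no symbol in the annotation, had 0 reads in the dark wild type and 156 in the mutant, at 2.97 and 2.78 RPKM. Against a floor of 3 reads over the dark wild type it was 47.3-fold higher, a ratio that leaves out the counting error of the 156 reads. ANT, a regulator of organ growth in the shoot, had a log2 fold change of -0.38 (SE 0.08). BBM and PLT7 were too low to be tested: BBM had 79 reads in the dark wild type, 62 in the blue-grown wild type, 28 in cry1 cry2 and 16 in the mutant, and PLT7 had 26, 53, 42 and 70. In blue light ANT rose by 0.81 (SE 0.08), and PLT5 by 0.27 (SE 0.10), a call lost without WT_dark replicate 1 (0.24) or WT_blue replicate 1 (0.23). ANT was lower in cry1 cry2 than in the blue-grown wild type (-0.32), a call lost without WT_blue replicate 2 (-0.26). Against the dark wild type, ANT (0.49) and PLT5 (0.32) were higher in cry1 cry2, the PLT5 call being lost without any 1 of the 4 libraries compared, at 0.28 to 0.35.

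**Figure D3:**
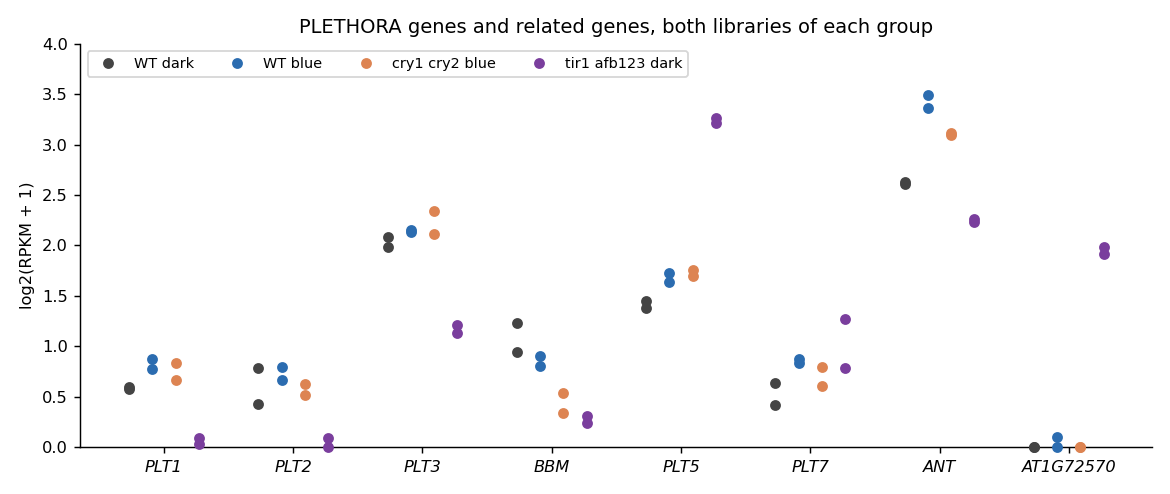
Level of the 3 PLT regulators and 5 related genes as log2(RPKM + 1) in both libraries of each of the 4 groups (points, coloured by group). In the auxin receptor mutant PLT1, PLT2 and PLT3 are at their lowest, whereas PLT5 (8.60 and 8.29 RPKM) and AT1G72570 (2.97 and 2.78 RPKM) are at their highest.

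WOX5 (AT3G11260, chromosome 3, 3527280 to 3528440, plus strand) holds the auxin response element at 2 places, 893 bases (chr3:3526360-3526419) and 496 bases (chr3:3526757-3526816) before the start. They are shown because, of the 4 regulators with this element, WOX5 is the one that did not pass in the auxin receptor mutant; the element is again in capitals and the windows run in the direction of the gene.
WOX5 at 893: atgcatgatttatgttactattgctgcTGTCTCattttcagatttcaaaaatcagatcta
WOX5 at 496: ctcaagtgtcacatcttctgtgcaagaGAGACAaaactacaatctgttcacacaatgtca
WOX5 stood at 1.45 and 0.989 RPKM in the dark wild type, 0.580 and 0.706 in the blue-grown wild type, 0.693 and 0.492 in cry1 cry2, and 1.08 and 0.812 in the auxin receptor mutant. Both dark groups lay above both blue light groups, and the groups overlapped within each light condition. Only WT_dark replicate 1 and tir1afb123_dark replicate 1 reached 1 RPKM. WOX5 was therefore tested only through the light condition where it was high. The fall in blue light was -0.43 (SE 0.14, adjusted p = 0.0172), to 52.7% of the dark share (29.2% to 92.8%), on 21 against 36 reads. It was lost without WT_dark replicate 1 (-0.28, adjusted p = 0.152) or WT_blue replicate 1 (-0.37, adjusted p = 0.0855), and with voom on the recovered reads (-0.88, adjusted p = 0.0529). WOX5 in cry1 cry2 under blue light was lower than in the dark wild type by 0.47 on the log2 scale (adjusted p = 0.0197), again lost without WT_dark replicate 1 (-0.32) or cry1cry2_blue replicate 2 (-0.38). The auxin receptor mutant had 78.3% of the dark wild-type share, with an interval of 46.8% to 130% (log2 fold change -0.18, adjusted p = 0.25). In cry1 cry2 it was at 93% of the blue-grown wild type (47.8% to 180%). No neighbouring step in its order of levels passed, and with 8 to 21 reads per library changes within these intervals were not detectable at this depth.

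Other genes of the root stem cell niche and root cap were read from a list of 16, of which 9 were tested. Of those 9, 8 fell and none rose in the auxin receptor mutant, at a median of -1.04. With RGF3, which had 0 reads there, set at 3 reads, the median was -1.27. Of all tested models 51.4% fell, at a median of -0.24. UPB1, a regulator of the transition from division to differentiation, went from 43.8 and 38.4 RPKM in the dark wild type to 11.1 and 7.36 (log2 fold change -2.06). AT4G26540, a receptor-like kinase in the annotation (-1.88), and TMO7, a target of MP (-1.31), followed on the scale of log2(RPKM + 1), which understates the falls of genes at low levels such as the root cap factors and RGF3. The root cap factors SMB and BRN1 stood at 1 and 8 reads in the mutant; they are named after their values were seen. SMB was at 0.608 and 1.03 RPKM in the dark wild type and at 0.0294 and 0 in the mutant, and BRN1 at 2.07 and 1.71 against 0.195 and 0.203. WOX5 kept 31 reads in libraries where SMB, BRN1, PLT1 and PLT2 had 1 to 8, but not every gene of this list was so low there. NTT, for one, was at 3.26 and 3.93 RPKM in the dark wild type and at 3.17 and 2.86 in the mutant. TPST went from 16.1 and 16.4 RPKM to 9.62 and 9.10.

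In blue light the niche list split, with 3 genes risen, 3 fallen and 3 not passed, where 34% of all tested models rose and 40.4% fell. UPB1 (-2.05) and the sulfotransferase TPST (-0.84) fell, and TMO7 rose by 0.99. NTT (-0.32), RGF3 (0.42) and AT5G48940 (0.31) each passed and were lost when single libraries were left out. RGF3 moved to 0.17 without WT_blue replicate 1 and to 0.67 without WT_blue replicate 2. NTT stood at -0.22 without WT_dark replicate 2 and at -0.23 without WT_blue replicate 1, and AT5G48940 at 0.28 to 0.34 without WT_dark replicate 2 or either library of the blue-grown wild type. In cry1 cry2 against the blue-grown wild type UPB1 (0.61) and TPST (0.50) rose and TMO7 (-0.60) fell, and the other 6 did not pass. Of all tested models 41.6% rose and 26.3% fell in that comparison. The UPB1 rise was lost without cry1cry2_blue replicate 1 (0.46, adjusted p = 0.0506).

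SHR (AT4G37650, chromosome 4, 17691687 to 17693859, plus strand) and SCR (AT3G54220, chromosome 3, 20069987 to 20072878, plus strand) are partner factors of the GRAS family, and they parted in these seedlings. SHR was at 18.1 and 20.05 RPKM in the dark wild type, 12.5 and 12.3 in the blue-grown wild type, 22.1 and 21.6 in cry1 cry2, and 6.17 and 5.72 in the auxin receptor mutant. No groups overlapped, with cry1 cry2 highest and the auxin receptor mutant lowest. SCR was at 18.2 and 20.04 RPKM in the dark wild type, 18.2 and 18.9 in the blue-grown wild type, 17.5 and 17.4 in cry1 cry2, and 17.5 and 17.8 in the auxin receptor mutant. Its values lay in a narrow band in all 8 libraries, and the groups could not be ordered: neighbouring steps had adjusted p = 0.6, 0.366 and 0.831.

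SHR fell in blue light to 64.8% of the dark share (59.8% to 70.1%, log2 fold change -0.58, SE 0.07, adjusted p = 2.06e-05). In cry1 cry2 it was at 177% of the blue-grown wild type (164% to 190%, log2 fold change 0.77, adjusted p = 2.6e-06). The auxin receptor mutant had 31.2% of the dark wild-type share (28.1% to 34.5%, log2 fold change -1.53, adjusted p = 4.17e-09), on 511 against 1491 reads. The step from cry1 cry2 in blue light to the dark wild type did not pass (0.19, adjusted p = 0.0606), and it passed without WT_dark replicate 2 (0.26, adjusted p = 0.0476) and with voom on the recovered reads (0.20, adjusted p = 0.0281). For SCR the 95% intervals were 90.9% to 103% of the dark share in blue light, 88.5% to 100% in cry1 cry2 against the blue-grown wild type, and 86.5% to 98.3% in the auxin receptor mutant. The SCR log2 fold changes of -0.04, -0.08 and -0.11 in turn had adjusted p = 0.6, 0.281 and 0.155. Under upper-quartile scaling they became 0.04, -0.17 and 0.06, the second with adjusted p = 0.0384, so no direction is given for SCR. That scaling moved the median of all tested models in the auxin receptor mutant from -0.24 to -0.10, a shift of 0.147, and SHR kept a log2 fold change between -1.68 and -1.37 there in all 15 alternatives tried.

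The partners and targets of SHR and SCR were read from a list of 10 genes, all tested. The auxin receptor mutant showed 9 falls and 1 rise, at a median of -0.73, where 51.4% of all tested models fell, 27.5% rose and the median was -0.24. The largest falls on the log2(RPKM + 1) scale were those of the zinc finger factors NUC, from 5.17 and 5.62 to 0.943 and 1.11 RPKM (-1.66, SE 0.10), JKD, from 34.96 and 38.4 to 13.1 and 11.9 (-1.48, SE 0.07), and MGP, from 1.94 and 1.55 to 0.134 and 0.222 (-1.22, SE 0.14). JKD and MGP bind SHR and SCR, and MGP and NUC are known targets of the pair. RBR1, the retinoblastoma-related protein that binds SCR, rose by 0.29, and this call was lost without WT_dark replicate 1 (0.22) or tir1afb123_dark replicate 1 (0.20).

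In blue light the same genes went both ways, 3 up, 4 down and 3 not passed, where 34% of all tested models rose and 40.4% fell. SCL3, another GRAS factor, went from 22.2 and 22.1 RPKM in darkness to 7.74 and 7.06 (-1.46, SE 0.08), and JKD (-0.76) and NUC (-0.41) fell with it. MGP rose by 0.70 (SE 0.14), AT3G45260, a zinc finger gene without a symbol, by 0.36 and the cyclin CYCD6;1, which drives the ground tissue division, by 0.33. SHR itself fell in that comparison. The CYCD6;1 call was lost without either dark wild-type library (0.34 and 0.33) or WT_blue replicate 2 (0.26), and that of AT3G45260 without WT_blue replicate 1 (0.33, adjusted p = 0.0507). In cry1 cry2 against the blue-grown wild type 4 of the list rose and 3 fell, where 41.6% of all tested models rose and 26.3% fell. The rises were led by SCL3 (1.02), JKD (0.89) and the HD-ZIP gene PHB (0.37), and the falls were those of MGP (-0.66), AT3G45260 (-0.49) and CYCD6;1 (-0.44). In cry1 cry2 under blue light against the dark wild type SCL3 alone passed, at -0.44, and the other 9 did not. Of all tested models 41.6% passed there.

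**Figure D4:**
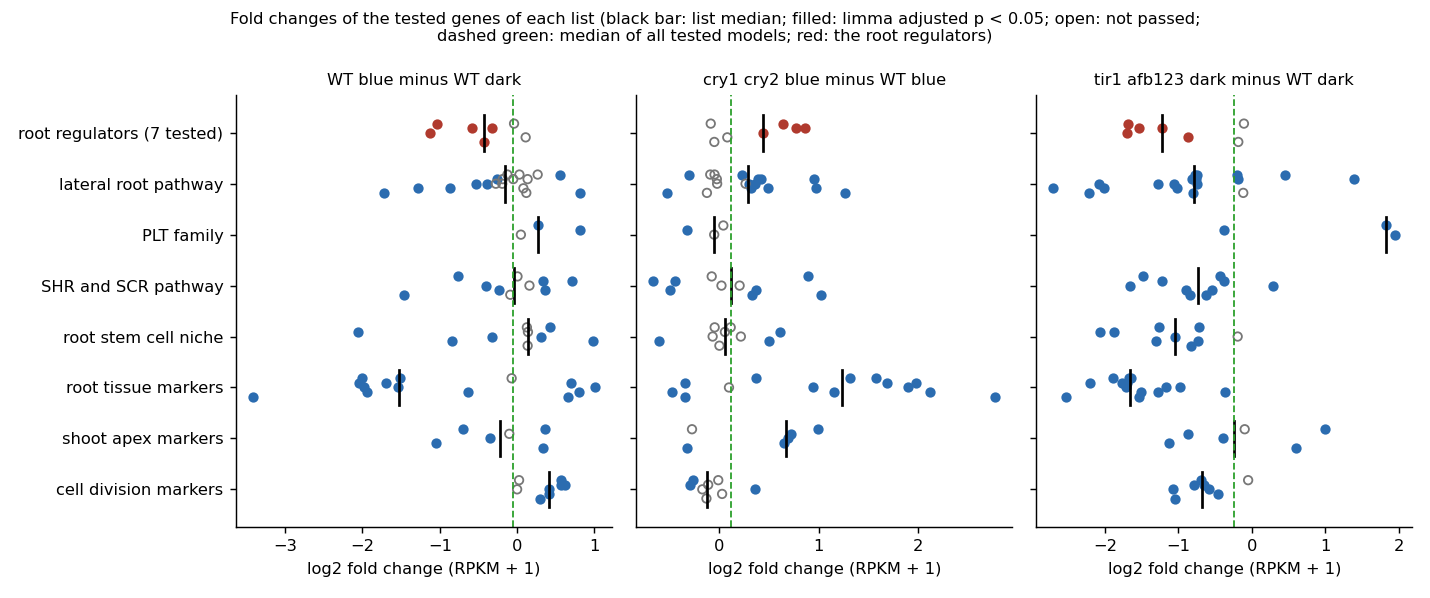
Log2 fold change of RPKM + 1 (horizontal axis) of each tested gene in the root regulators and 7 other gene lists, for 3 comparisons; filled points passed at a limma adjusted p under 0.05, open points did not, black bars are list medians and the dashed line is the median of all tested models. In the auxin receptor mutant the medians of the root regulators (-1.22), the lateral root pathway (-0.79), the SHR and SCR pathway (-0.73), the niche genes (-1.04) and the root tissue markers (-1.66) lie below the median of all models (-0.24). That of the cell division markers (-0.67) lies below it as well, and that of the shoot apex markers (-0.245) lies close to it. The median of the PLT relatives lies at 1.83, over 3 tested genes. Among them is AT1G72570, which was tested only because it reached 1 RPKM in the auxin receptor mutant.

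Markers of root tissue, shoot apex and cell division are given beside the regulators, and their part in the results was not tested. Of all tested models 40.4% fell and 34% rose in blue light, and 51.4% fell and 27.5% rose in the auxin receptor mutant. In cry1 cry2 against the blue-grown wild type 26.3% fell and 41.6% rose. Of 15 root tissue markers 14 were tested; 14 fell in the auxin receptor mutant, at a median of -1.66 against -0.24 over all tested models. In blue light 9 fell and 4 rose, at a median of -1.53 against -0.06 over all tested models. In cry1 cry2 against the blue-grown wild type 10 rose and 3 fell, at a median of 1.24 against 0.12. All 15 summed to 4531 to 4575 RPKM in the dark wild type, 2585 to 2864 in the blue-grown wild type, 5922 to 6434 in cry1 cry2 and 3130 to 3244 in the auxin receptor mutant. PYK10 held most of that sum, and the order of the groups differed without it: the 14 other markers summed to 723.7 to 744.6 RPKM in the dark wild type, 247.6 to 266.2 in the blue-grown wild type, 642.2 to 710.4 in cry1 cry2 and 208.1 to 212.9 in the auxin receptor mutant. The marker below the threshold for testing, the root nitrate transporter NRT2:1, went the other way in the auxin receptor mutant, with 16 reads against 0 in the dark wild type. With the dark group set at 3 reads it was 4.85-fold higher in that mutant. It had 17 reads in the blue-grown wild type, 5.12-fold higher on the same floor, and 2 in cry1 cry2. Neither ratio includes the counting error of these few reads. The largest falls in blue light on the log2(RPKM + 1) scale were those of the endodermal genes CASP5 (-3.41), ESB1 (-2.04) and MYB36 (-2.00), PYK10, named after its values were seen, fell as well (-0.63), and the iron transporter IRT1 (1.01) and the root hair genes COBL9 (0.80) and PRP3 (0.69) rose.

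The 9 shoot apex markers summed to 52.21 to 52.74 RPKM in the dark wild type, 37.22 to 39.38 in the blue-grown wild type, 63.78 to 64.03 in cry1 cry2 and 31.72 to 32.18 in the auxin receptor mutant, and WUS had 1 read in all. Of the 6 tested, 3 fell and 2 rose in blue light, 4 rose and 1 fell in cry1 cry2, and 3 fell and 2 rose in the auxin receptor mutant. The medians were -0.23, 0.67 and -0.25 in turn, against -0.06, 0.12 and -0.24 over all tested models, so in the auxin receptor mutant the median of the shoot apex genes was close to that of all models. The 8 cell division markers summed to 72.54 to 74.85 RPKM in the dark wild type, 98.47 to 99.49 in the blue-grown wild type, 92.48 to 92.77 in cry1 cry2 and 39.47 to 40.39 in the auxin receptor mutant. In blue light 6 of the 8 rose and none fell, including the cyclin CYCB1;2 (0.62) and the cytokinesis gene KNOLLE (0.57). The auxin receptor mutant had 7 of them fallen and none risen, with CYCB1;3 at -1.08 and the kinase CDKB2;1 at -1.05. In cry1 cry2 1 rose and 2 fell. Beside the counts of both lists, 34% of all tested models rose and 40.4% fell in blue light. In cry1 cry2 41.6% rose and 26.3% fell, and in the auxin receptor mutant 27.5% rose and 51.4% fell. The medians of the cell division list were 0.41 in blue light, -0.12 in cry1 cry2 and -0.67 in the auxin receptor mutant, against -0.06, 0.12 and -0.24 over all tested models.

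For each tested regulator the genes with the most similar profile were found by the root mean square difference of log2(RPKM + 1), each gene centred on its mean over the 8 libraries. For LBD16 the closest was LSH9, with a difference of 0.0506 against LBD16's own spread of 0.644, followed by the peroxidase gene AT3G32980 at 0.0589. LSH9 stood at 15 and 13.6 RPKM in the dark wild type, 6.59 and 6.21 in the blue-grown wild type, and 3.63 and 3.72 in the auxin receptor mutant. For LBD18 they were AT1G31720 (0.0906) and NAC073 (0.091), and for LBD29 ZFP5 (0.0744) and AT3G09020 (0.0777). For PLT3 they were WRI1 (0.0527) and AT4G03100 (0.0622), and for SHR AT1G77700 (0.0438) and RBL2 (0.0684). For WOX5, whose own spread was 0.218, AT3G12587 (0.104) and AT3G56210 (0.107) came closest. The matches of SCR, ASY2 (0.0409) and CRN (0.0414), share little more than a flat profile, since the spread of SCR was 0.0613. With 4 groups of 2 libraries, many genes can share such a profile. Adding 1 RPKM also shrinks the changes of low genes such as LBD29 and WOX5, so a close profile need not mean a like fold change. In the auxin receptor mutant LBD29 kept 3.75% of its dark wild-type share. ZFP5 went from 9.07 and 8.79 RPKM in the dark wild type to 2.41 and 2.2 in that mutant.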

How the data were processed

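RNA from 8 seedling libraries was measured. The authors deposited RPKM values for 27416 gene models, as the file headers state. Alignment used Bowtie2 2.2.2 and TAIR10, per the submitters' processing notes; the annotation release, the assignment of reads and the use of strand are not given in the sources used here. All 24717 models above 0 gave whole reads within 0.01 reads when RPKM was divided by the step of 1 read, which returned library totals and the reads behind each value. These reads served for exact conditional binomial intervals (95%, counting error only) and for an alternative test.

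The main test was limma 3.58.1 in R 4.3.3 on log2 of RPKM + 1 with a mean-variance trend, in a single fit of 4 groups (4 residual and 6.96 prior degrees of freedom). It covered 20044 models that reached 1 RPKM in 2 libraries or more, with Benjamini-Hochberg adjustment over all of them and a threshold of 0.05. Both the fit and the read recovery were tested on simulated data. Alternatives were pseudocounts of 0.1 and 0.5, no filter, upper-quartile scaling, fits of the compared groups only, a replicate block, voom on the recovered reads, and leaving out each library. Replicates of a group differed with an SD of 0.109 to 0.12 in log2 units.

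The members and the gene lists were chosen with earlier results of these data known. Named genes are all members, the 2 closest profiles of each, the mutated genes, and up to 3 risen and 3 fallen genes per list and comparison; exceptions are stated. Symbols and promoters came from the RefSeq annotation and genome of TAIR10.1, from which all positions are given; the files hold no coordinates. Upstream windows of 1000 and of 250 bases were searched on both strands for 3 motifs. Python 3.11.15 and matplotlib 3.10.9 were used for tables and figures.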

Additional observations from a re-analysis of the deposited data

How the results depend on the processing

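The counts of passing regulators moved by no more than 1.5 times under the alternatives, except in cry1 cry2 under blue light against the dark wild type, where leaving out single libraries gave 2 to 5 of 7 against 4, the lowest without cry1cry2_blue replicate 2. The calls of LBD16, LBD29 and SHR in blue light, of LBD16, LBD18 and SHR in cry1 cry2 against the blue-grown wild type, and of LBD16, LBD18, LBD29, PLT3 and SHR in the auxin receptor mutant held in all 15 alternatives. Smaller pseudocounts and voom enlarged the changes of low genes, LBD29 in the auxin receptor mutant to -4.43 and in blue light to -2.01, and LBD18 in the auxin receptor mutant to -3.11. With a pseudocount of 0.1 the LBD18 fall in blue light no longer passed (-0.52, adjusted p = 0.0519), and with voom WOX5 no longer passed against the dark wild type in cry1 cry2 (-0.99, adjusted p = 0.0535). Signs turned only for changes that never passed: SCR in blue light with upper-quartile scaling (0.0393) and over the single libraries left out (-0.105 to 0.0258, the highest without WT_dark replicate 2), SCR in the auxin receptor mutant with upper-quartile scaling (0.0597), and, over the single libraries left out in cry1 cry2 against the blue-grown wild type, PLT3 (-0.0358 to 0.202) and WOX5 (-0.139 to 0.0441), positive for WOX5 without WT_blue or cry1cry2_blue replicate 2 and negative for PLT3 without cry1cry2_blue replicate 2; apart from the scaling and the smaller number of samples, the cause was not tested. The replicate numbers share only a number: deviations of same-numbered libraries correlated at -0.115 to 0.137. A replicate block gave 5, 4, 5 and 4 passing regulators in the 4 comparisons, as without it and with no call of a regulator changed, and genes called numbered 14873, 13491, 15756 and 8161. Pairing the numbers crosswise in the auxin receptor mutant, chosen after seeing the data, gave 5 regulators and 15884 models. Depth limits what can be seen of PLT1, PLT2 and WOX5, with 0 to 37 reads per library, and of LBD29, with 2 to 51.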
